A study of Danio rerio with 14 samples.

Results

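The 10 genes described here are circadian clock genes of the zebrafish: the period genes per1a, per1b, per2 and per3, the cryptochrome gene cry1a, the Rev-Erb receptor genes nr1d1 and nr1d2a, the PAR bZIP transcription factor genes dbpa and tefa, and ciarta. They were taken by gene symbol from a table of read counts for 36109 genes, and the list was drawn up with earlier results of these data known. All 10 were found, with cry1a listed as cry1aa, and all 10 passed the filter on low counts that left 24424 genes for testing. Between mttp mutants and their siblings none of the 10 passed the test at 24 or 48 hours, where 3.82% and 6.06% of all genes did. Between the stages nr1d2a and dbpa rose in both genotypes, where 26.2% of all genes were higher in siblings and 23.6% in mutants. So did per1a, by calls that were lost when some single libraries were left out.

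In vertebrates, Clock and Bmal proteins bind E-box elements and switch on period and cryptochrome genes, whose proteins return to the nucleus and repress Clock and Bmal. A second loop runs through the Rev-Erb and Ror receptors, which repress and activate Bmal transcription, and the PAR bZIP factors carry the rhythm to output genes through D-box elements. In zebrafish the tissues hold their own clocks, light acts on them directly, and per2 and cry1a are known as genes that light induces.

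RNA came from whole zebrafish embryos in 4 groups: mttp knockout embryos at 24 hours post fertilisation (hpf, 4 libraries) and at 48 hpf (3 libraries), and siblings at 24 hpf (4 libraries) and at 48 hpf (3 libraries). The product of mttp is needed to load lipid onto apolipoprotein B in the assembly of lipoproteins. The knockout was made with CRISPR/Cas9, the siblings carry no treatment in the labels, and whether they were wild type, heterozygous or mixed is not given in the sources used here. Neither the hour of collection nor the light schedule is given there, and for clock genes both bear on what a level at 24 or 48 hpf stands for. Each stage has its own batch label, so stage, batch and any difference in hour or light cannot be told apart, while mutants and siblings of a stage share the batch.

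The libraries held 29422983 to 46534187 counts. In the mutants mttp was at 7.90 to 11.3 CPM (counts scaled by library size) at 24 hpf, against 67.3 to 79.6 CPM in siblings, and at 6.23 to 11.4 against 19.3 to 38.5 CPM at 48 hpf, so that the groups did not overlap at either stage. Markers of neurons (elavl3), muscle (actc1b), epidermis (krt4) and primitive red cells (hbbe1.1, hbae1.1) were counted in all 14 libraries, and none passed the test between genotypes. The yolk syncytial layer marker ttr did not pass either, with only 0 to 18 counts in siblings and 0 to 2 in mutants at 48 hpf. With the 24 hpf libraries alone and a replicate block in the edgeR test, elavl3 was called higher in mutants (log2 fold change 0.32, adjusted p = 0.0430). Transcripts of the mitochondrial genome took 0.847% of counts in sibling replicate 2 at 24 hpf and 0.696% in sibling replicate 3 at 48 hpf, against 1.27% to 1.97% in the other 12 libraries. Among counts from 10 to 49, 72.5% to 79.8% were even numbers in 13 libraries and 88.6% in sibling replicate 3 at 48 hpf, against 49.7% to 52.4% and 58.1% among counts of 1000 or more. The counts of dbpa were even in 14 of 14 libraries, and those of per1a and nr1d1 in 13 of 14, so the number of independent molecules behind these low counts is not known.

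Among the light-induced repressor genes, per2 encodes a period protein. At 24 hpf it stood at 21.9, 27.4, 22.7 and 29.0 CPM in the 4 sibling libraries and at 25.1, 27.9, 25.8 and 25.9 CPM in the 4 mutant libraries. At 48 hpf it stood at 28.8, 30.3 and 28.9 CPM in siblings and at 31.7, 34.0 and 43.3 CPM in mutants. The groups overlapped at 24 hpf, and at 48 hpf each mutant library was above each sibling library. The log2 fold change of mutants against siblings was 0.05 ± 0.11 (SE) at 24 hpf (adjusted p = 0.904) and 0.31 ± 0.13 at 48 hpf (95% interval 0.03 to 0.59, adjusted p = 0.217), by the edgeR quasi-likelihood test with Benjamini-Hochberg adjustment over all genes tested, which gives every adjusted p here unless another tool is named.

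The gene cry1a encodes a cryptochrome that represses Clock and Bmal. In siblings at 24 hpf it stood at 26.9, 34.8, 27.1 and 34.4 CPM, and in mutants at 29.8, 28.4, 28.1 and 23.8 CPM. In siblings at 48 hpf it stood at 28.4, 27.6 and 34.3 CPM, and in mutants at 31.5, 36.1 and 43.7 CPM. Mutant and sibling libraries overlapped at both stages. The log2 fold change of mutants against siblings was -0.16 ± 0.13 at 24 hpf (adjusted p = 0.607) and 0.30 ± 0.15 at 48 hpf (adjusted p = 0.289). In the RefSeq annotation the span of cry1a overlaps that of btbd11a, and the span of per1b overlaps that of dthd1. Whether their exons overlap was not examined. Without strand, reads from a stretch that both genes share cannot be told apart.

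The period genes per1a, per1b and per3 encode further partners of the repressing complex. The counts of per1a were low: 26, 44, 0 and 46 in siblings and 28, 49, 42 and 26 in mutants at 24 hpf, then 114, 130 and 48 in siblings and 102, 174 and 110 in mutants at 48 hpf. Sibling replicate 3 at 24 hpf had no count of per1a, where 3 counts would be 0.0931 CPM, while its 3 companions stood between 0.826 and 1.40 CPM. The 95% interval of the fold change of mutants against siblings for per1a ran from 0.468 to 3.12 at 24 hpf and from 0.446 to 3.45 at 48 hpf, so these libraries leave the size of any per1a difference within those bounds undetermined.

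For per1b the sibling libraries stood at 123, 98.4, 88.1 and 109 CPM and the mutant libraries at 124, 98.9, 89.1 and 80.1 CPM at 24 hpf. At 48 hpf the siblings stood at 76.2, 70.8 and 65.3 CPM and the mutants at 70.2, 82.4 and 108 CPM. The genotypes overlapped at both stages, with log2 fold changes of -0.09 ± 0.14 (adjusted p = 0.845) and 0.30 ± 0.17 (adjusted p = 0.386). For per3 the siblings stood at 46.1, 52.2, 40.7 and 56.3 CPM and the mutants at 53.4, 72.3, 49.7 and 57.6 CPM at 24 hpf. At 48 hpf they stood at 71.6, 69.7 and 56.4 CPM and at 62.3, 65.3 and 72.2 CPM. Here too the genotypes overlapped, with log2 fold changes of 0.25 ± 0.13 (adjusted p = 0.337) and 0.02 (95% interval -0.29 to 0.32, adjusted p = 0.974).

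**Figure D1:**
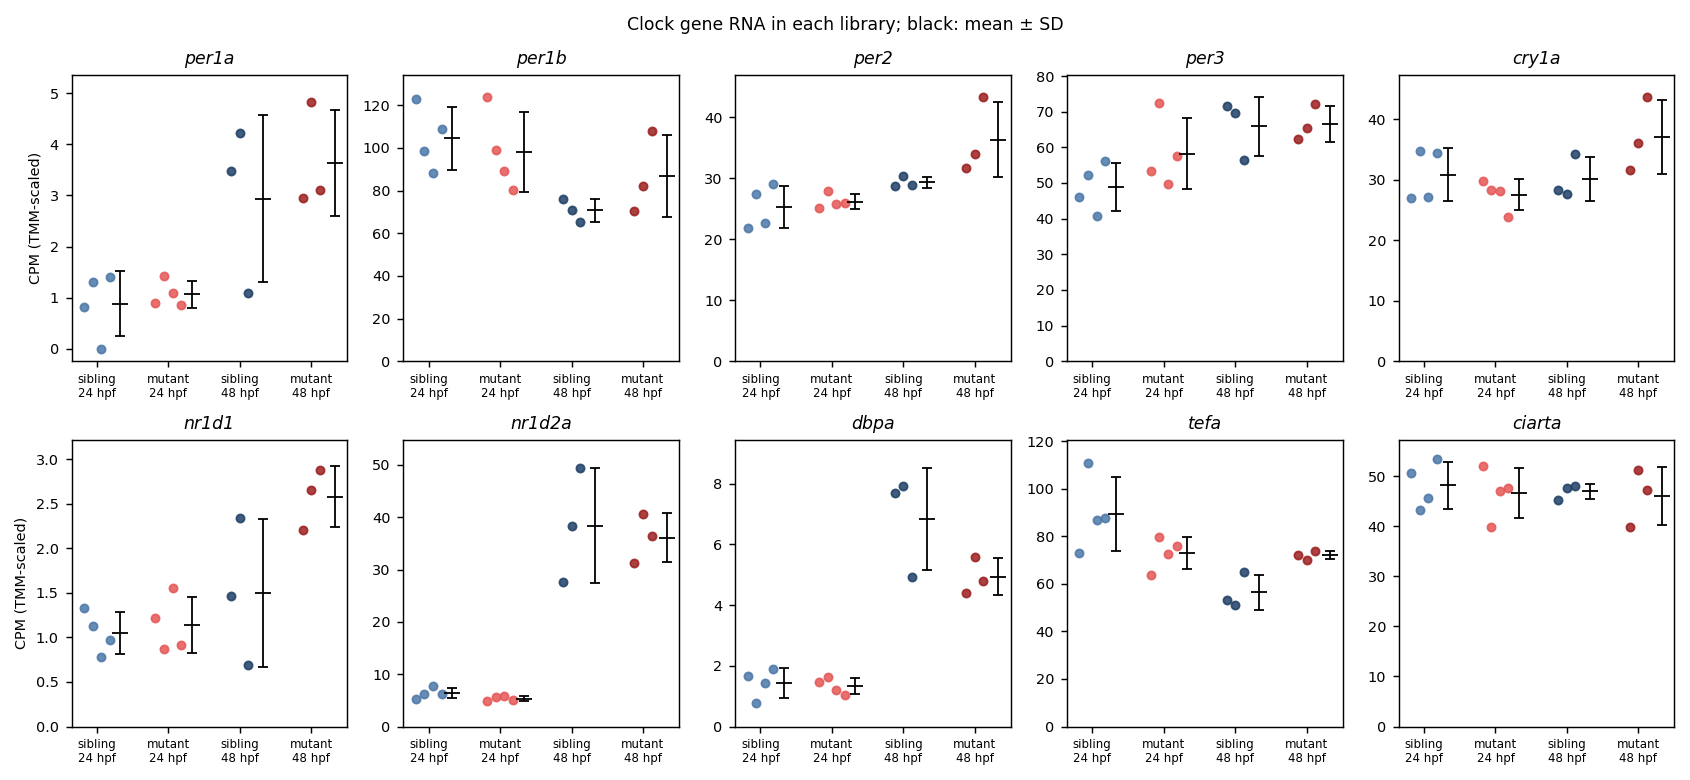
Level of each clock gene in CPM (y axis from 0, 1 panel a gene) in the 14 libraries, by group, with points for libraries and bars for the group mean and SD. The nr1d2a and dbpa panels show both 48 hpf groups above both 24 hpf groups, and the per2 and tefa panels show the 48 hpf mutants above the 48 hpf siblings.

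The Rev-Erb receptors bind haem and repress Bmal transcription. In siblings nr1d2a stood at 5.31, 6.27, 7.69 and 6.20 CPM at 24 hpf and at 27.5, 38.3 and 49.5 CPM at 48 hpf. In mutants it stood at 4.94, 5.57, 5.80 and 5.04 CPM and then at 31.3, 40.6 and 36.5 CPM. The stages did not overlap in either genotype, while mutants and siblings of a stage did. The mutant effect was -0.25 ± 0.17 on the log2 scale at 24 hpf (adjusted p = 0.525) and -0.09 at 48 hpf (95% interval -0.47 to 0.29, adjusted p = 0.856).

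Its relative nr1d1 was at a low level. Siblings stood at 1.33, 1.12, 0.776 and 0.973 CPM at 24 hpf and at 1.46, 2.34 and 0.688 CPM at 48 hpf. Mutants stood at 1.22, 0.875, 1.55 and 0.916 CPM and then at 2.20, 2.66 and 2.88 CPM. The 48 hpf mutants were all high but overlapped the siblings through sibling replicate 2, and the mutant effect at 48 hpf was 0.79 ± 0.43 (95% interval -0.11 to 1.69, adjusted p = 0.358). At 24 hpf it was 0.12 ± 0.38 (adjusted p = 0.935). Across the alternatives the 48 hpf effect ran from 0.41 to 1.28 and passed in none. The lowest 48 hpf sibling was replicate 3, with 30 counts of nr1d1, which is a library of low mitochondrial share.

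The PAR bZIP factors bind D-box elements, which in zebrafish also serve the response of clock genes to light. The dbpa libraries stood at 1.65, 0.769, 1.43 and 1.89 CPM in siblings and at 1.48, 1.63, 1.19 and 1.05 CPM in mutants at 24 hpf. At 48 hpf they stood at 7.68, 7.93 and 4.91 CPM in siblings and at 4.41, 5.60 and 4.79 CPM in mutants. Both 48 hpf groups lay above both 24 hpf groups, and the genotypes overlapped at each stage. The mutant effect on dbpa was -0.10 ± 0.28 at 24 hpf (adjusted p = 0.928) and -0.47 ± 0.30 at 48 hpf (95% interval -1.11 to 0.17, adjusted p = 0.466).

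The gene tefa, whose product is known in zebrafish as a D-box activator of per2, had the lowest adjusted p of the 10 genes at both stages. Siblings stood at 73.1, 111, 86.7 and 87.8 CPM and mutants at 63.9, 79.6, 72.4 and 75.8 CPM at 24 hpf. At 48 hpf siblings stood at 53.2, 51.1 and 65.0 CPM and mutants at 72.3, 70.1 and 73.6 CPM. The genotypes overlapped at 24 hpf, and at 48 hpf the 3 mutants were above the 3 siblings. The mutant effect was -0.30 ± 0.11 at 24 hpf (95% interval -0.54 to -0.05, adjusted p = 0.189) and 0.35 ± 0.13 at 48 hpf (0.07 to 0.63, adjusted p = 0.152). Without both sibling libraries of low mitochondrial share, an alternative chosen after seeing the data, the 48 hpf value was 0.44 (adjusted p = 0.0142). In that same fit the 24 hpf value was -0.16, the nearest to 0 of the alternatives run, and did not pass. With the 24 hpf libraries alone and a replicate block the 24 hpf value was -0.27 (adjusted p = 0.0261). The effect at each stage thus passed under 1 alternative only, and not the same one.

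The last gene, ciarta, encodes a repressor that in the mouse dampens Clock and Bmal activity. It spanned 43.1 to 53.3 CPM in siblings and 39.9 to 51.9 CPM in mutants at 24 hpf, then 45.2 to 48.0 and 39.8 to 51.1 CPM at 48 hpf. All 4 groups overlapped. Its mutant effect was -0.05 ± 0.10 (95% interval -0.26 to 0.17, adjusted p = 0.902) and -0.03 (-0.28 to 0.22, adjusted p = 0.940).

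Taking the 10 genes as a list, edgeR called 0 of 10 between mutants and siblings at 24 hpf, where it called 3.82% of all genes, and DESeq2 also called 0. At an unadjusted p under 0.05 there was 1 of 10 (tefa), against 16.2% of all genes, and the groups did not overlap for 0 of 10, against 13.6%. At 48 hpf edgeR called 0 of 10, against 6.06% of all genes, and DESeq2 also 0. There, 2 of 10 (per2 and tefa) had an unadjusted p under 0.05, against 17.9%, and the same 2 had groups that did not overlap, against 22.5%. At that stage 7 of 10 values were above 0, a share that was not computed over all genes. The median of the 10 values was 0.30, beside -0.005 over all genes tested. At 24 hpf 4 of 10 values were above 0, and the median of the 10 was -0.07, beside -0.003 over all genes tested.

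**Figure D2:**
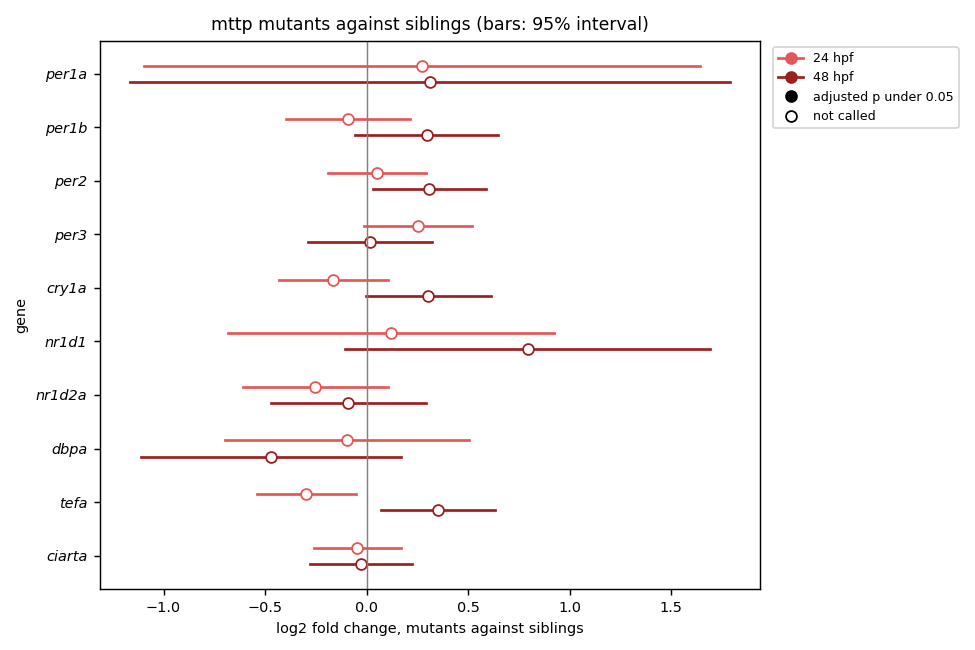
Log2 fold change of mutants against siblings (x axis) for each clock gene (y axis) at 24 and 48 hpf, with bars for the 95% interval. The intervals of per1a, nr1d1 and dbpa are wide, and those of per2 and tefa at 48 hpf lie above 0 although their adjusted p values are 0.217 and 0.152. At 24 hpf the tefa interval lies below 0, also without a call.

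The difference between the mutant effects at the 2 stages was tested as an interaction. For 0 of 10 genes it passed, against 3.17% of all genes. At an unadjusted p under 0.05 there were 2 of 10 (tefa and cry1a), against 15.7% of all genes, and DESeq2 called 1 (tefa). For tefa the effect at 48 hpf minus that at 24 hpf was 0.65 ± 0.18 on the log2 scale (95% interval 0.28 to 1.02, adjusted p = 0.0542). Across the alternatives it ran from 0.53 to 0.76 with adjusted p from 0.0145 to 0.129, and the test was passed with DESeq2 (adjusted p = 0.0201), with the replicate block (0.0421), without sibling replicate 1 at 24 hpf (0.0244), without sibling replicate 3 at 48 hpf (0.0145) and with both low-mitochondrial libraries left out (0.0147). For cry1a the difference was 0.47 ± 0.19 (95% interval 0.06 to 0.87, adjusted p = 0.237).

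Between 24 and 48 hpf the clock genes moved in both directions. In siblings 4 of 10 rose (per1a, per3, nr1d2a and dbpa), where 26.2% of all genes were higher, and 2 fell (per1b and tefa), where 26.3% were lower. In mutants 6 of 10 rose (per1a, per2, cry1a, nr1d1, nr1d2a and dbpa), where 23.6% of all genes were higher, and 0 of 10 fell by edgeR or DESeq2, where 19.6% of all genes were lower. The same 6 were those with an unadjusted p under 0.05 in mutants, against 49.6% of all genes. The stages did not overlap for 5 of 10 genes in siblings, against 50.4% of all genes, and for 6 of 10 in mutants, against 53.0%. In either direction 52.4% of all genes were called in siblings and 43.2% in mutants, so with directions pooled a share of 6 of 10 is near the background. In mutants all 6 calls were rises, beside 23.6% of all genes, and whether that share differs from the background was not tested. The mutant and sibling stage comparisons contrast different libraries, but they are not independent. All libraries were fitted together with a shared estimate of the spread, and both comparisons run between the same batch labels. Each also shares its libraries with the genotype comparisons above.

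The largest rises were those of nr1d2a, at 6.03-fold in siblings (95% interval 4.68 to 7.78, adjusted p = 2.19e-09) and 6.76-fold in mutants (5.23 to 8.73, adjusted p = 1.91e-09). The rise of dbpa was 4.76-fold in siblings (3.10 to 7.31, adjusted p = 5.68e-06) and 3.68-fold in mutants (2.39 to 5.67, adjusted p = 5.64e-05). Both calls stood under each alternative run. For per1a the rise was 3.30-fold in siblings (1.22 to 8.91, adjusted p = 0.0410) and 3.39-fold in mutants (1.27 to 9.03, adjusted p = 0.0418). The per1a call in siblings was lost without sibling replicate 1 at 24 hpf, sibling replicate 1 or 2 at 48 hpf, or mutant replicate 2 or 3 at 48 hpf, and the call in mutants was lost without any 1 of the 7 mutant libraries.

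The falls that passed the test were seen in siblings. There tefa fell to 0.630 of its 24 hpf level (95% interval 0.525 to 0.756, adjusted p = 2.61e-04), while in mutants the ratio was 0.988 (0.824 to 1.18, adjusted p = 0.927). For per1b the ratio was 0.677 in siblings (0.538 to 0.851, adjusted p = 0.00640) and 0.886 in mutants (0.705 to 1.11, adjusted p = 0.400). Whether these stage changes differ between genotypes is the interaction given above, which neither tefa (adjusted p = 0.0542) nor per1b passed.

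The 2 light-induced genes rose in mutants, per2 by 1.39-fold (95% interval 1.16 to 1.66, adjusted p = 0.00454) and cry1a by 1.35-fold (log2 fold change 0.43 ± 0.14, adjusted p = 0.0160). In siblings the values were 1.16-fold for per2 (0.968 to 1.39, adjusted p = 0.158) and 0.976-fold for cry1a (0.799 to 1.19, adjusted p = 0.851). The cry1a call in mutants was lost without mutant replicate 4 at 24 hpf (adjusted p = 0.0583) or mutant replicate 3 at 48 hpf (0.0867). In mutants nr1d1 rose 2.25-fold (1.25 to 4.05, adjusted p = 0.0242), a call lost with the replicate block (0.0545) and without mutant replicate 2 (0.0704) or 4 (0.0673) at 24 hpf, or mutant replicate 2 (0.0586) or 3 (0.0702) at 48 hpf. In siblings per3 rose 1.35-fold (1.11 to 1.64, adjusted p = 0.0124), a call lost without sibling replicate 1 at 48 hpf (0.0562). The interaction test given above passed for none of per2, cry1a, nr1d1 and per3. Across the alternatives its lowest adjusted p was 0.413 for per2, 0.0966 for cry1a, 0.368 for nr1d1 and 0.253 for per3. Calls in a single genotype here thus do not show a difference between genotypes.

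**Figure D3:**
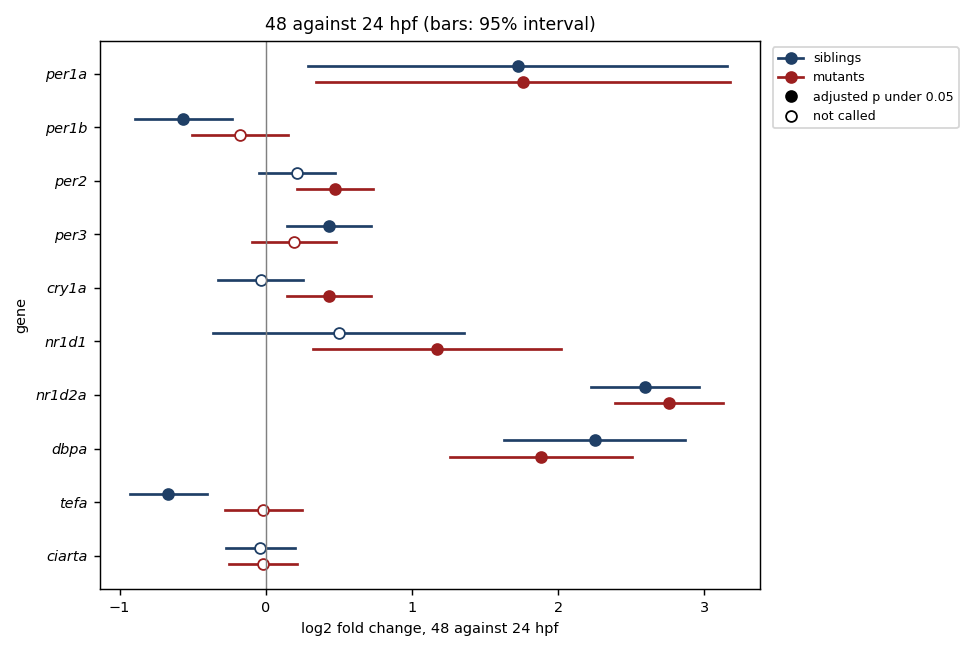
Log2 fold change of 48 against 24 hpf (x axis) for each clock gene (y axis) in siblings and in mutants, with bars for the 95% interval and filled points where the adjusted p is under 0.05. The points of nr1d2a and dbpa lie far to the right in both genotypes, the sibling point of tefa lies at -0.67 and its mutant point at -0.02, and ciarta lies at -0.04 and -0.02.

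Within a group the clock genes varied from library to library, and this variation was described by the deviation of each library's log2 CPM from its group mean. Over the 14 libraries the highest correlation among the 45 pairs was that of per2 with cry1a (r = 0.74), followed by per2 with per3 (r = 0.67) and per1a with per3 (r = 0.67). The lowest was that of dbpa with tefa (r = -0.73). In the 2 sibling libraries of low mitochondrial share dbpa deviated by -0.78 and -0.44, and tefa by 0.32 and 0.21. In sibling replicate 3 at 24 hpf, without a count of per1a, per1a deviated by -3.27 and per3 by -0.25. Single libraries thus weigh heavily in these 2 pairs, and r without them was not computed. The median over the pairs was 0.21, with 31 of 45 above 0, and the median correlation of the members with all tested genes was -0.00025. These correlations are descriptions over libraries that share a batch within a stage and differ in depth. The closest member was cry1a for per1b (r = 0.46), for per2 and for tefa (r = 0.47), per1a for nr1d1 (r = 0.51), tefa for nr1d2a (r = 0.43), per1b for dbpa (r = 0.44) and for ciarta (r = 0.44).

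The mean deviation of the 10 genes was lowest in sibling replicate 3 at 24 hpf, at -0.42, where per1a had no count and 8 of 10 genes were below their group mean. It was highest in sibling replicate 4 of that stage, at 0.25, where 7 of 10 were above. Outside the clock lists, the 5 genes closest to this mean deviation were zgc:171901 (r = 0.93), lin9 (r = 0.92), mmp13b (r = 0.91), si:ch211-236l14.4 (r = 0.90) and irx4b (r = 0.89), picked from all tested genes over 14 libraries. The mean is weighted by per1a, whose deviation of -3.27 in that library was the largest of any member.

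**Figure D4:**
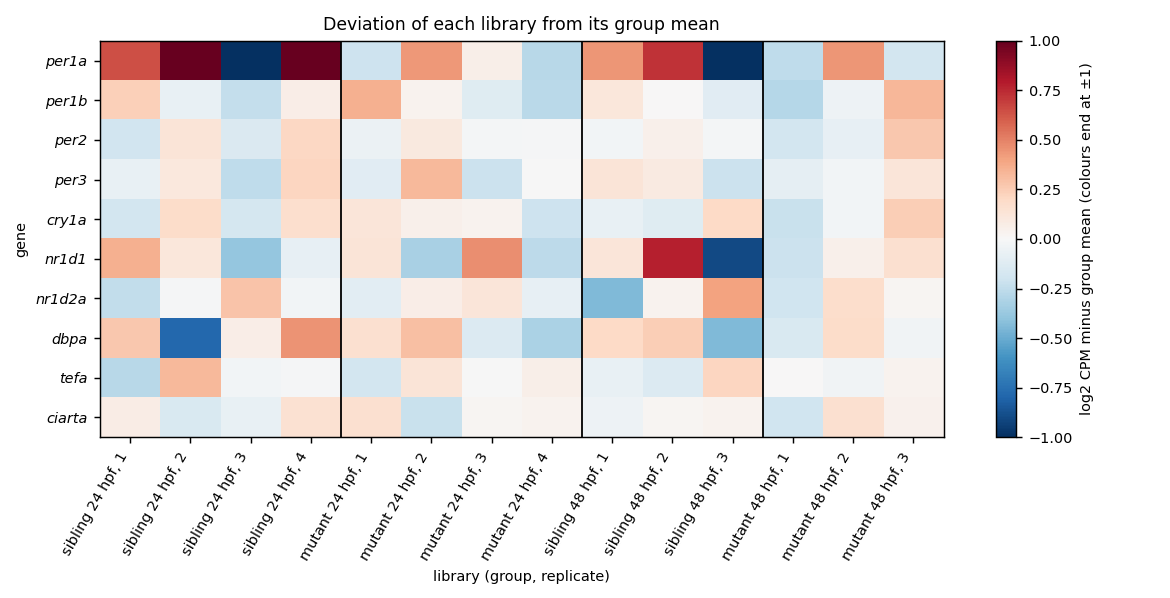
Deviation of log2 CPM from the group mean for each clock gene (rows) in each of the 14 libraries (columns), as colour on a scale centred at 0. The rows of per2 and cry1a move together (r = 0.74). Those of dbpa and tefa move apart (r = -0.73), with dbpa at -0.78 and tefa at 0.32 in sibling replicate 2 at 24 hpf. The per1a deviation of sibling replicate 3 at 24 hpf, at -3.27, goes beyond the colour scale, which ends at -1 and 1.

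Around the 10 genes, 52 further genes of the clock were tested: other period and cryptochrome repressors, Clock and Bmal activators, Rev-Erb and Ror receptors, PAR bZIP and Nfil3 factors, Ciart and Bhlhe40 type repressors, clock kinases and F-box proteins, DNA repair genes that light drives in zebrafish, and clock outputs. At 24 hpf 1 of 52 was called between mutants and siblings (1.92%, against 3.82% of all genes). This was fbxl3b, an F-box gene whose relative targets cryptochromes in mammals, at 36.7 to 45.9 CPM in siblings and 19.9 to 30.3 CPM in mutants (log2 fold change -0.61 ± 0.15, adjusted p = 0.0261). The groups did not overlap, as for 13.6% of all genes. Leaving out sibling replicate 2 or 3, or mutant replicate 1, 2 or 4 of that stage, ended the call. Under other settings cry3a, listed as cry1ba, was called higher in mutants at 24 hpf, against 0.34 ± 0.11 (adjusted p = 0.0892) in the edgeR test used throughout. Its adjusted p was 0.0291 with DESeq2, 0.0378 with library size only, 0.0408 with the replicate block, 0.0210 with the 24 hpf libraries alone and 0.00505 with those and the block. In that last fit npas2 (0.0445) and rorcb (0.0393) were called too, and rorcb also with DESeq2 (0.0491) and without sibling replicate 3 at 48 hpf (0.0471).

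At 48 hpf 6 of 52 were called (11.5%, against 6.06% of all genes), of which 3 were higher and 3 lower in mutants. The higher genes were bhlhe41, a repressor of E-box genes, at 8.67 to 10.5 CPM against 4.09 to 5.69 (0.97 ± 0.23, adjusted p = 0.0176), dbpb, the paralogue of dbpa, at 5.58 to 6.64 against 3.53 to 4.23 (0.67 ± 0.18, adjusted p = 0.0333), and wee1, a clock-controlled kinase of the cell cycle, at 39.1 to 44.7 against 27.3 to 35.7 (0.43 ± 0.11, adjusted p = 0.0206). In these libraries no group overlapped its counterpart for any of the 3 genes, which were picked by adjusted p. The same held for 22.5% of all genes. The dbpb call was lost without any 1 of the 4 mutant libraries at 24 hpf, without sibling replicate 1 or 3 or mutant replicate 1 or 2 at 48 hpf, without the filter on low counts (adjusted p = 0.0899) and with the 48 hpf libraries alone (0.146), where wee1 was lost too (0.134). Leaving out sibling replicate 1 or mutant replicate 2 at 48 hpf ended the call of bhlhe41, and leaving out sibling replicate 1 or 2, or mutant replicate 1 or 3, ended that of wee1.

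The lower genes at 48 hpf were usp2a, a deubiquitinase under clock control in mammals, and the Ror receptor genes rorab and rorb. The levels of usp2a were 44.5 to 47.6 CPM in mutants and 56.9 to 68.1 CPM in siblings (-0.44 ± 0.09, adjusted p = 0.00490). Those of rorab were 21.0 to 32.2 and 39.7 to 63.5 CPM (-0.84 ± 0.17, adjusted p = 0.00497), and those of rorb 79.5 to 96.3 and 135 to 158 CPM (-0.74 ± 0.18, adjusted p = 0.0165). With the 48 hpf libraries alone the calls of rorab (adjusted p = 0.0699) and usp2a (0.0630) were lost, and leaving out sibling replicate 2, or mutant replicate 1 or 3, ended the call of rorb. The direction of none of the 3 changed under the alternatives run. The E-box repressor gene bhlhe40 was called higher in mutants at 48 hpf with DESeq2 (adjusted p = 0.0441), with library size only (0.0233) and without sibling replicate 3 (0.00974). Without both sibling libraries of low mitochondrial share it was called too (0.0115). In that fit roraa (log2 fold change -0.64, adjusted p = 0.0222) and noctb (-0.58, 0.0471) were called lower in mutants. So was cry3a without mutant replicate 2 at 48 hpf (-0.44, 0.0483).

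Some pineal and photoreceptor markers were also lower in the 48 hpf mutants. In whole embryos fewer cells of a type and less RNA per cell cannot be told apart. The summed level of 10 pineal and photoreceptor markers was 122 to 183 CPM in siblings and 49.3 to 64.0 CPM in mutants at 48 hpf, and 10.8 to 12.9 and 11.3 to 13.4 CPM at 24 hpf. Most of the 48 hpf sum was otx5 (72.3 to 104 CPM in siblings, 22.3 to 33.7 CPM in mutants) and crx. The crx levels were 29.9 to 47.3 and 9.39 to 13.1 CPM. The means of saga (1.64 CPM in siblings, 1.69 CPM in mutants) and gnat2 (0.760 and 1.20 CPM) were higher in mutants. At 48 hpf 3 of the 10 were called, against 6.06% of all genes, and all 3 were lower in mutants. They were the transcription factor genes crx (log2 fold change -1.75, adjusted p = 8.72e-05) and otx5 (-1.65, adjusted p = 5.48e-04), and the arrestin gene sagb (-2.16, adjusted p = 9.36e-04). Among the markers that did not pass were exorh (-0.05) and aanat2 (-0.40). None of the 10 was without counts in a whole group, and the part of these markers in the rorab and rorb values was not tested.

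**Figure D5:**
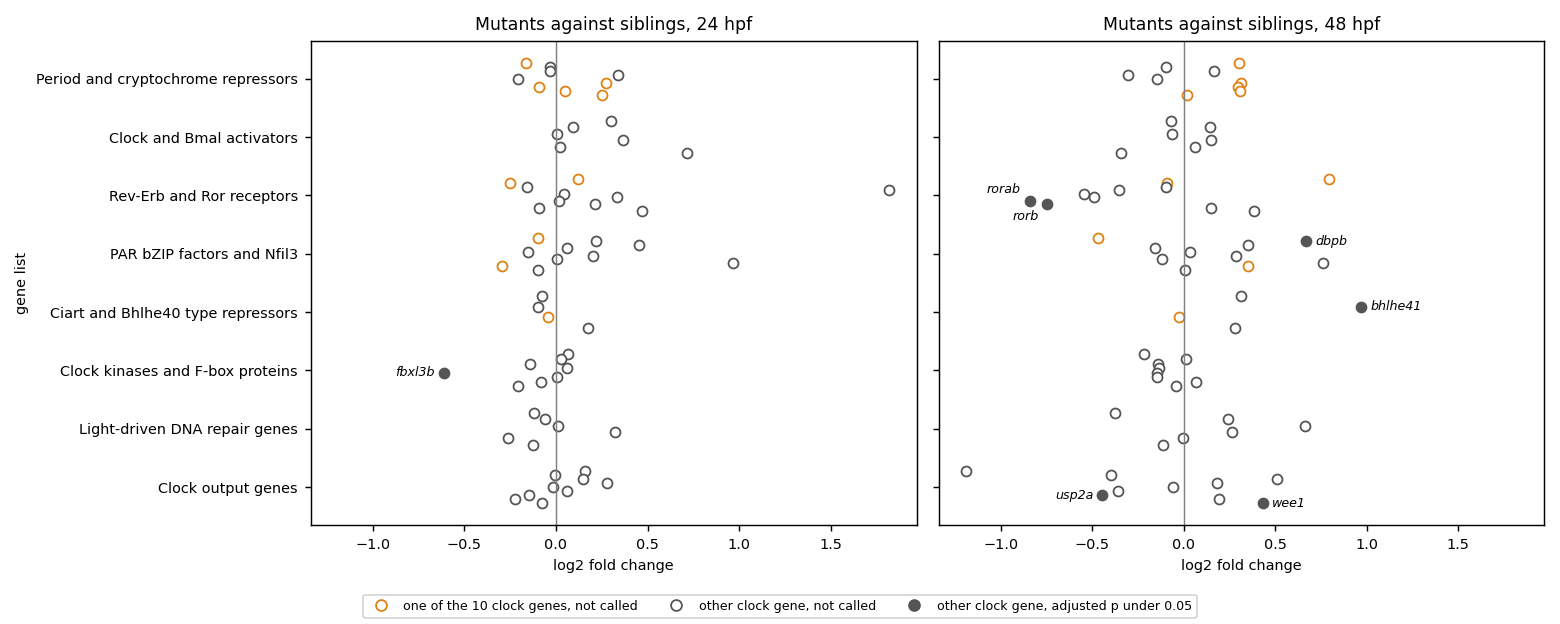
Log2 fold change of mutants against siblings (x axis) for each tested clock gene, by list (y axis), at 24 hpf (left) and 48 hpf (right), with filled points for an adjusted p under 0.05 and orange for the 10 clock genes. At 48 hpf the filled points above 0 are bhlhe41, dbpb and wee1 and those below 0 are rorab, rorb and usp2a, at 24 hpf the 1 filled point is fbxl3b, and the orange points are all open.

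The stage comparison of these further genes called 33 of 52 in siblings (19 higher, 14 lower) and 29 of 52 in mutants (17 higher, 12 lower), which is 63.5% and 55.8% against 52.4% and 43.2% of all genes. Among the Rev-Erb and Ror receptor genes, the members nr1d1 and nr1d2a included, 6 of 10 rose in siblings, where 26.2% of all genes were higher, and 7 of 10 in mutants, where 23.6% were. The log2 fold change of rorb was 3.44 ± 0.17 in siblings (adjusted p = 7.46e-11) and 2.48 ± 0.17 in mutants (4.28e-09), that of roraa 2.90 ± 0.19 and 2.08 ± 0.19, and that of rorcb 1.07 ± 0.16 and 0.98 ± 0.16. Of the PAR bZIP and Nfil3 genes, the members dbpa and tefa included, 6 of 10 rose and 2 fell in siblings, beside 26.2% and 26.3% of all genes. In mutants 6 of these 10 rose, beside 23.6%. Without the members 5 of 8 rose and 1 fell in siblings, and 5 of 8 rose in mutants. The D-box repressor genes nfil3-5 and nfil3-2 rose by 1.71 ± 0.13 and 1.67 ± 0.13 in siblings, and hlfb by 2.41 ± 0.24.

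The DNA repair genes were lower at 48 hpf in most comparisons. In siblings 6 of 6 fell, where 26.3% of all genes were lower, and in mutants 5 of 6 fell, where 19.6% were lower. The log2 fold change of ddb2, which senses ultraviolet damage, was -1.32 ± 0.21 in siblings and -1.38 ± 0.21 in mutants, and that of cry-dash, a photolyase relative, -1.12 ± 0.21 and -0.82 ± 0.21. The photolyase gene cry5 fell by 0.99 in siblings and was at -0.33 in mutants without passing the test. The list also holds neil1, a glycosylase, cpdp, a photolyase listed as zgc:66475, and xpc, a sensor of DNA damage. In siblings the cpdp call was lost without replicate 2 or 3 at 24 hpf, replicate 1 or 2 at 48 hpf, mutant replicate 4 at 24 hpf or any mutant library at 48 hpf, and the xpc call without replicate 2 at 48 hpf. In mutants the neil1 call (adjusted p = 0.0483) was lost with the replicate block (0.0625) and without any 1 of 10 libraries: the 4 siblings and mutant replicates 1, 3 and 4 at 24 hpf, and the 3 mutants at 48 hpf. Without mutant replicate 1 at 48 hpf xpc was lost too (0.0814), which leaves 3 of 6.

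Among the activators bmal1a, listed as arntl1a, rose by 0.71 ± 0.14 and bmal2, listed as arntl2, by 0.23 ± 0.09 in siblings, and in mutants npas2, a Clock relative, fell by 1.16 on the log2 scale (SE 0.38, adjusted p = 0.0227). The bmal2 call was lost with the replicate block (adjusted p = 0.0824) and without sibling replicate 1, 2 or 4 at 24 hpf or 1 or 2 at 48 hpf. The npas2 call was lost without mutant replicate 2 (0.0503) or 3 (0.0607) at 24 hpf or mutant replicate 1 at 48 hpf (0.130). Among the repressors cry2 fell by 0.71 in siblings and by 0.51 in mutants, and cry3a, listed as cry1ba, rose by 0.66 in siblings. The E-box repressor gene bhlhe40 fell by 0.94 in siblings and by 0.56 in mutants, and bhlhe41 rose by 1.23 ± 0.22 in mutants. Of the outputs wee1 fell by 1.62 in siblings and by 1.11 in mutants. The cell cycle inhibitor gene cdkn1d rose by 1.80 ± 0.16 and 1.70 ± 0.16. The deadenylase genes nocta and noctb went apart, with 1.60 ± 0.17 and -1.11 ± 0.17 in siblings and 1.56 ± 0.17 and -1.53 ± 0.18 in mutants. Of the kinases and partners csnk1e rose by 0.90 ± 0.13 in siblings, csnk1da by 0.49 ± 0.08, and timeless fell by 0.73.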

How the data were processed

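The authors deposited 1 table of whole-number counts of reads for each gene, not normalized, over 14 libraries. Per the submitters' processing notes the tools were FastQC 0.12.1, Trim Galore 0.6.10, STAR 2.7.10b and featureCounts 2.0.6, with the genome build GRCz11, and neither the annotation nor the handling of strand and of multi-mapped reads is given in the sources used here. Per the labels' protocols, 1 µg of TRIzol-extracted total RNA went into NEBNext Ultra libraries, a kit that does not mark strand.

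Of 36109 genes 4130 had no count, and filterByExpr with a minimum count of 10 kept 24424 genes holding 99.96% of counts. All 14 libraries were fitted as 4 groups with edgeR 4.0.16 (limma 3.58.1, R 4.3.3) by glmQLFit and glmQLFTest on counts with TMM factors, with the Benjamini-Hochberg adjustment over all tested genes and a threshold of 0.05. The 95% intervals come from the standard errors of that fit, and levels are CPM with TMM factors. The common dispersion was 0.058, with 10 residual degrees of freedom. Deviations used log2 CPM with a prior count of 2. Nothing in the labels says that replicates come from separate clutches, so the p-values rest on the spread among these libraries, which may be technical. Replicates were compared, and none differed by as little as sampling noise: the lowest chi-square per gene of a pair in a group was 9.74. The highest values were those of sibling replicate 3 at 48 hpf with replicates 1 and 2 (82.8 and 77.1). Replicates 1 and 2 of that group stood at 16.0. The next highest were those of sibling replicate 2 at 24 hpf with replicates 1, 4 and 3 (54.3, 46.9 and 31.5). The remaining pairs of the 24 hpf siblings stood at 14.1 to 24.4.

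The members and the gene lists were chosen with earlier results of these data known. Named genes are the 10 members, mttp, up to 4 called genes per clock list and comparison with the smallest p, and the 5 genes whose deviations were closest to the members' mean. Other genes named were chosen after their values were seen. Of 86 list genes 8 were matched by a RefSeq synonym and btrc was not matched. Genes that overlap were taken from RefSeq, whose build differs, so no coordinates are given, and promoter sequences were not used here. The alternatives were DESeq2 1.42.0, its size factors in edgeR, library size only, no filter, a replicate block, the stage's libraries alone with and without that block, each library left out in turn, and both sibling libraries of low mitochondrial share left out.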

Additional observations from a re-analysis of the deposited data

Results flagged for a closer look

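For 7 of the 86 genes listed here, of which btrc was not matched, the mutant effect at 48 hpf differed from that at 24 hpf by the edgeR interaction test, which called 3.17% of all genes. The differences are log2 fold changes, 48 hpf effect minus 24 hpf effect. None of the 10 clock genes was among them. With the replicate block wee1 (adjusted p = 0.0232) and tsc22d3 (0.0385) were called as well as tefa, and with DESeq2 roraa (0.0374), bhlhe41 (0.0279), wee1 (0.0217) and tsc22d3 (0.0494) as well as tefa. Without sibling replicate 3 at 48 hpf roraa (0.0458), bhlhe40 (0.0176), wee1 (0.00821) and tsc22d3 (0.0234) were called as well as tefa.

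In the clock lists the difference was -0.64 ± 0.16 for cry3a (adjusted p = 0.0359), listed as cry1ba, with 108 to 129 CPM in siblings and 133 to 160 CPM in mutants at 24 hpf, then 165 to 208 and 132 to 179 CPM at 48 hpf. It was -0.86 ± 0.22 for rorab (0.0462) and -0.96 ± 0.24 for rorb (0.0367). These 3 calls were lost in 9, 11 and 9 of the alternatives run, each of them a library left out, with adjusted p up to 0.117, 0.134 and 0.111.

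Outside the clock lists the difference was 0.92 for sgk1 (adjusted p = 0.00949), a glucocorticoid-induced kinase gene. Among the pineal and photoreceptor markers it was -2.51 for crx (7.17e-04), -1.79 for otx5 (0.0134) and -2.04 for sagb (0.0248). The sagb call was lost without mutant replicate 3 at 24 hpf, sibling replicate 2 at 48 hpf, or mutant replicate 1 or 3 at 48 hpf.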

How the results depend on the processing

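Of the 10 clock genes, 0 were called between genotypes at 24 hpf, and 1 (tefa, lower) with the 24 hpf libraries alone and a replicate block. At 48 hpf 0 were called, and 1 (tefa, higher) without both sibling libraries of low mitochondrial share. For the difference between stages 0 were called, and 1 (tefa) with DESeq2, with the replicate block and without both such libraries. With single libraries left out the counts were 0 to 0, 0 to 0 and 0 to 1, from 4 to 6 for the stages in siblings and from 3 to 6 in mutants, with 3 without mutant replicate 4 at 24 hpf or mutant replicate 3 at 48 hpf. Of the values recomputed for single genes 6035 stayed on their side of the threshold, 140 left it, 61 came past it, and no called value changed sign. A further 2 values, both of ttr with DESeq2, had no adjusted p and were not placed.

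Over all genes the calls at 24 hpf were 934, and 1621 with DESeq2, 2580 with the stage's libraries and a block, and 524 to 1727 with a library left out. At 48 hpf they were 1480, and 909 with the stage's libraries alone and 946 to 1632 with a library left out. For the difference they were 774, and 1374 with DESeq2, 1319 without both libraries of low mitochondrial share and 472 to 1428 with a library left out. Scaling by library size only moved the median of all genes at 24 hpf to 0.10 and the share of higher genes among the called from 39.2% to 63.7%.

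The main test did not pair samples by replicate number, and the labels do not say whether equal numbers mark paired samples. Same-numbered deviations of mutants and siblings correlated at 0.0677 to 0.306 at 24 hpf and 0.0874 to 0.273 at 48 hpf. Each of 8 and 6 libraries correlated best with its own number, so a pairing may be present that the main test leaves out. With the replicate block over all 14 libraries, which joins equal numbers of both stages, the clock genes called were 0 at 24 hpf and 0 at 48 hpf. The counts were 1 for the difference, 6 between stages in siblings and 5 in mutants. With a stage's libraries alone and the block, tefa was called at 24 hpf (adjusted p = 0.0261) and no clock gene of the 10 at 48 hpf. Depth limits per1a, nr1d1 and dbpa most, whose counts are low and nearly all even.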

Other observations

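Of 8 glucocorticoid response genes, 6 rose between the stages in siblings, where 26.2% of all genes were higher, and 7 rose in mutants, where 23.6% were higher. Of the 6, tsc22d3 was lost without sibling replicate 1 or 4 at 24 hpf or 3 at 48 hpf. In zebrafish larvae glucocorticoid signalling is known to be needed for daily rhythms of cell division. The log2 fold change of 48 against 24 hpf for fkbp5, a chaperone of the receptor, was 4.99 ± 0.14 in siblings (adjusted p = 4.25e-13) and 5.53 ± 0.14 in mutants (3.14e-13). For klf9 it was 4.57 ± 0.41 and 5.18 ± 0.41, and for hsd11b2, which inactivates cortisol, 3.71 ± 0.19 and 4.34 ± 0.19. These genes were chosen after their values were seen. At 24 hpf klf9 had only 4 to 26 counts in siblings and 6 to 16 in mutants, so the size of its rise rests on low counts.

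The summed level of the 8 genes of that list was 321 to 375 CPM in siblings and 425 to 479 CPM in mutants at 48 hpf, and 169 to 195 and 168 to 191 CPM at 24 hpf. The 48 hpf means that differed most were those of fkbp5 (83.1 CPM in siblings, 119 CPM in mutants) and sgk1 (37.2 and 69.0 CPM). Those of pck1 (43.3 and 40.0 CPM) and tsc22d3 (40.3 and 39.6 CPM) were lower in mutants, and the remaining means were higher. At 48 hpf 2 of 8 were called between genotypes, against 6.06% of all genes: sgk1 at 0.89 (adjusted p = 5.43e-04) and fkbp5 at 0.51 (0.0223), both higher in mutants, and the call of fkbp5 ended when sibling replicate 3, or mutant replicate 1 or 2, at 48 hpf was left out, and with the 48 hpf libraries alone (0.102). At 24 hpf 1 of 8 was called, against 3.82% of all genes: tsc22d3 at -0.59 (adjusted p = 0.00541), lower in mutants.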
